A study of Mus musculus with 47 samples.

Results

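Collagens are the fibre- and sheet-forming proteins of the extracellular matrix, and this account follows their genes in 4 tissues of mice on 2 diets. Members were every gene symbol made of Col, a type number, the letter a and a chain number, with at least 20 raw tags in total in at least 1 of the 4 tissue tables. The rule used no difference between groups, and it took 38 of the 42 symbols of that form, among 15846 symbols of any name that met the same minimum. Col2a1, Col9a2, Col10a1 and Col25a1 fell short, with at most 15, 9, 1 and 1 tags in a table. Within a tissue the minimum was met by 29 members in inguinal white fat (IWAT), 30 in brown fat (BAT), 24 in liver and 35 in gastrocnemius muscle.

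The animals were 12 male C57BL/6J mice, kept at 23 C and fed a control diet or one restricted in methionine from 5 weeks of age, for 11 weeks. Tissues were collected after a fast of 5 h. Each group was 1 tissue on 1 diet and held 6 mice, except restricted gastrocnemius with 5, so 47 libraries were compared. All groups share strain, sex, age, housing and fast, and the labels name no altered allele. Libraries are named by diet (CON or MR) and animal number. The 4 tissues come from the same animals, and the whole tissue was used, so values are sums over its cell types.

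Fibrillar collagens (types I, II, III, V, XI, XXIV and XXVII) are secreted as triple helices, trimmed at both ends and packed into the tensile fibrils of skin, tendon and the interstitium. Type IV chains instead assemble into the sheet of the basement membrane that wraps adipocytes, muscle fibres and vessels. Type VI forms beaded filaments that tie the 2 systems together, types XV and XVIII (multiplexins) sit in the basement membrane zone, and FACIT collagens decorate fibrils. By class the members were 10 fibrillar, 6 type IV, 5 beaded filament, 2 multiplexin, 8 FACIT, 2 network, 3 transmembrane and 2 anchoring or other chains.

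What was counted for each gene was a short tag from its 3′ end, next to a CATG site cut by the enzyme NlaIII. The tags of the members on which the results turn are shown so that a reader can see what each count stands for. They were read from GENCODE vM1 transcripts as the last CATG with 23 bases behind it, with CATG in capitals, 5′ to 3′.
Col1a1: CATGtgcaggctgggtgggagagaccg
Col1a2: CATGgttccaaagaagtcttgtttctt
Col3a1: CATGccacaggatcttctcttctttta
Col5a1: CATGtgattcggattctgcctcccact
Col5a3: CATGgtgctgccctgctcataactggg
Col27a1: CATGccacctaaacaagtcaggactcc
Col4a1: CATGgtgtctgataatgagccctgtgc
Col4a2: CATGgctctagccaaacccacagcaaa
Col6a2: CATGttctgattgagctcaaggaacct
Col15a1: CATGtaagaacataaagacatcttttc
Col18a1: CATGaagcacttgtcctatgaagggac

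All 38 members had such a tag, no other gene held the same tag, and 36 lay wholly in the 3′ UTR. The deposited tables give tags per gene symbol, so which site was counted in a given mouse is not known from them. Since 1 tag stands for 1 transcript, no scaling by length was used. Levels are given as counts scaled to a common library total (CPM, from the plain total). Comparing genes on this scale takes their tags to be recovered equally well, which was not tested. The GC content of the 23 bases ran from 17.4% in Col22a1 to 73.9% in Col7a1, with a median of 52.2% over members and 43.5% over 22088 genes.

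The collagen chains themselves were poor in the restricted amino acid. Methionine took a median of 1.41% of codons over the 38 members, against 2.26% over 20772 genes with a complete coding sequence, and 37 members lay below the latter. Col7a1, the anchoring fibril chain, had the lowest share (0.408%) and Col8a1, a network chain, the highest (3.50%). Glycine, which fills every turn of the triple helix, took a median of 23.9% of member codons and 6.04% over all genes.

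Library totals ran from 4887004 tags in IWAT to 13117537 in BAT, and 0 tags leave room for a level of 0.229 to 0.614 CPM, depending on the library (3 tags, counting error only). Each tissue held the markers of its label: adipocyte markers summed to at least 33609 CPM in IWAT and 19131 in BAT, hepatocyte markers to at least 88354 in liver, and skeletal muscle markers to at least 59585 in every gastrocnemius library except MR3101, which had 5149. Brown fat library CON3106 held 3556 CPM of hepatocyte markers, against 19.7 to 106 in the other 11. Skeletal muscle markers in BAT ran from 59.9 CPM to 7112 in CON3114 and 12539 in CON3112, and from 241 to 4791 under restriction.

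In 4 libraries the mix of collagens departed most widely from the rest of their group. They were the IWAT libraries CON3106, CON3115 and MR3116 and the muscle library MR3101, chosen by a median Spearman correlation under 0.8 with libraries of the same tissue (0.628, 0.719, 0.647 and 0.582). In all 3 sets Col4a2, Col5a1, Col5a3, Col6a3 and Col18a1 were low and Col1a2, Col15a1 and Col8a1 were high. Col5a3, a minor fibrillar chain, averaged 34.9 CPM in CON3106 and CON3115 and 386 in the other 4 IWAT controls, a ratio of 0.0904. The same ratio was 0.0215 for MR3116 and 0.0246 for MR3101 in muscle. Col1a2, the second chain of type I collagen, had ratios of 3.16, 3.16 and 3.81. Col4a2 had ratios of 0.105, 0.0427 and 0.0147, so the fibrillar sum reached 25.1, 25.4 and 100.1 times the type IV sum in CON3106, MR3116 and MR3101. In BAT and liver the libraries of these 4 animals had fibrillar to type IV ratios of 1.45 to 3.38, with BAT CON3106 (3.22) the highest of the BAT libraries. In gastrocnemius CON3106, CON3115 and MR3116 had 9.03, 8.97 and 7.76, and IWAT MR3101 had 3.75.

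Smaller departures were seen in libraries that were kept. In gastrocnemius CON3114, CON3115 and MR3104 had 7.01, 7.08 and 6.12 tags of Col4a1 per tag of Col4a2, against 1.95 to 2.68 in the other controls. They also had 0.136, 0.189 and 0.175 tags of Col3a1 per tag of Col1a1, against 0.400 to 0.821 in the other controls. In BAT MR3109 had a Col4a1 to Col4a2 ratio of 7.34, against 1.27 to 3.03 in the other 11 libraries.

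Members low in these libraries tended to have tags rich in GC. The log2 ratio and tag GC were compared across members with a mean of at least 20 tags per library and a ratio above 0. Pearson r was -0.49 (Spearman rho -0.60, 17 members) for the IWAT controls. It was -0.42 (-0.51, 17 members) for MR3116 and -0.49 (-0.61, 21 members) for MR3101. Col6a3, Col14a1 and Col24a1 met the mean but had 0 tags in MR3101, so the 21 leave them out. Their tag GC was 43.5%, 43.5% and 56.5%. The points are genes of the same libraries, so this is a description. Col1a1 went against it, with a tag GC of 69.6% and ratios of 2.54, 1.58 and 1.61. So did Col5a2, with a tag GC of 34.8% and ratios of 0.815, 0.225 and 0.300. At the same tag GC of 43.5%, Col6a3 had ratios of 0.134, 0.0324 and 0 and Col6a2 1.46, 1.05 and 1.67. The part of tag composition or RNA quality in any diet result was not tested. Where leaving these libraries out changed an order, an overlap or a call described here, both values are given.

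**Figure D1:**
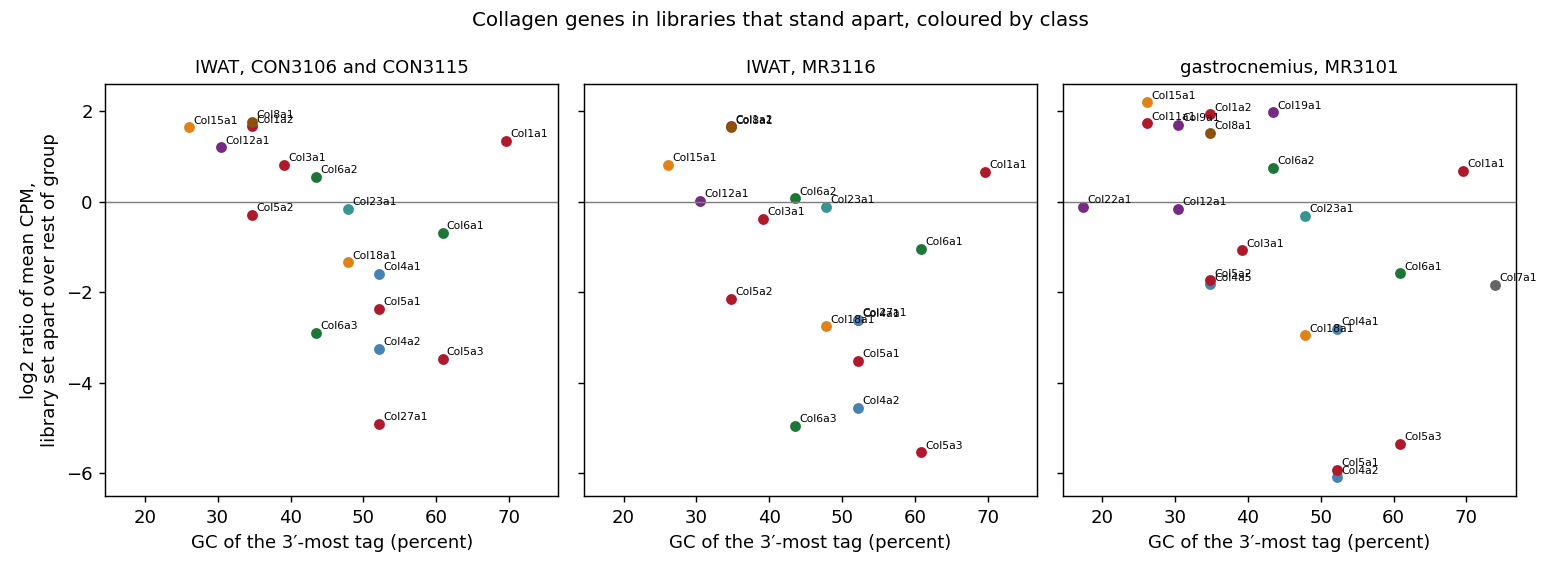
Tag GC content (x axis, percent) against the log2 ratio of mean CPM between the libraries that stand apart and the rest of their diet group (y axis), 1 point per collagen gene, coloured by class. Col15a1, Col1a2 and Col8a1 lie above 0 and Col4a2, Col5a1 and Col5a3 far below it in each of the 3 panels; members at 0 tags in the library set apart are not drawn.

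On the control diet the first question was which collagens each tissue expresses. Collagen tags made up 0.343% to 0.772% of an IWAT library, 0.138% to 0.271% in gastrocnemius, 0.0527% to 0.126% in BAT and 0.0723% to 0.0866% in liver. Of the 38 members, 23 had their highest mean in IWAT, 11 in gastrocnemius, 4 in liver and 0 in BAT. Without CON3106 and CON3115 in IWAT, Col1a1 (501 against 545 CPM) and Col8a1 (6.79 against 9.46) had their highest mean in gastrocnemius instead. Fibrillar chains led IWAT, BAT and gastrocnemius, with 1.26 to 3.22 fibrillar tags per type IV tag in control BAT and 7.51 to 12.1 in control gastrocnemius, and liver was dominated by 1 multiplexin.

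In IWAT the leading members were Col3a1 (24.4% of all collagen tags in the group mean), Col15a1 (17.9%), Col1a1 (13.2%), Col6a2 (11.8%) and Col1a2 (10.6%). In the 4 controls left without CON3106 and CON3115 they were Col3a1 (23.3%), Col15a1 (12.6%), Col6a2 (12.3%), Col4a1 (10.6%) and Col1a1 (10.5%), with Col1a2 at 7.35%. In BAT they were Col3a1 (17.8%), Col4a1 (15.7%), Col1a1 (12.0%), Col6a2 (11.5%) and Col15a1 (7.88%). Gastrocnemius was led by both type I chains, Col1a1 (30.2%) and Col1a2 (18.2%), then Col3a1 (12.1%), Col6a2 (11.3%) and Col15a1 (6.06%). In liver Col18a1, whose C-terminal piece is released as endostatin, took 80.1% of collagen tags, and Col27a1 (3.28%), Col3a1 (3.13%), Col5a3 (2.5%) and Col4a1 (2.36%) came next.

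**Figure D2:**
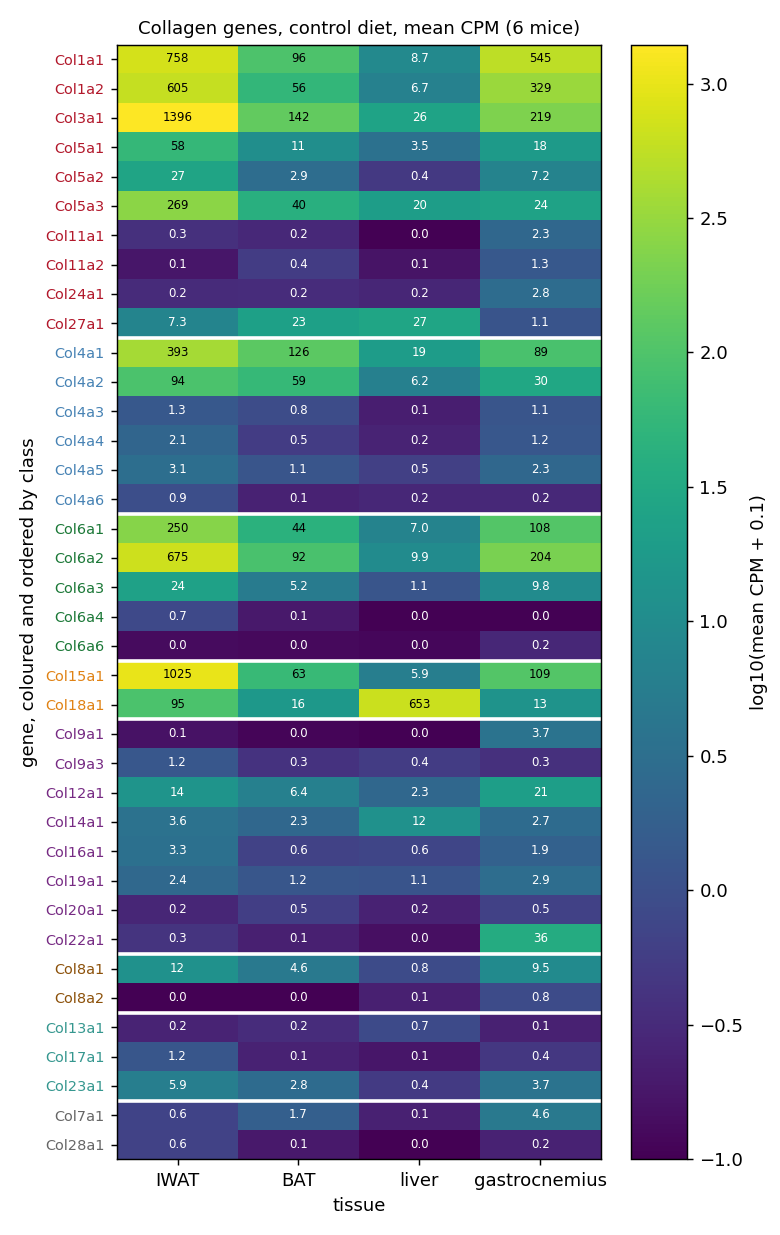
Mean CPM of the 38 collagen genes (rows, grouped and coloured by class) in 4 tissues (columns) on the control diet, 6 mice each; colour is log10(mean CPM + 0.1) and the number in each cell is the mean CPM. Most rows are brightest in IWAT, while Col18a1 is brightest in liver (653 CPM) and Col22a1 in gastrocnemius (35.8 CPM).

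Tissue pairs were tested in 1 edgeR quasi-likelihood fit of the 24 control libraries, in which 27 members had enough tags; the 11 others, Col11a1, Col11a2, Col13a1, Col17a1, Col20a1, Col28a1, Col4a6, Col6a4, Col6a6, Col8a2 and Col9a3, had too few and are given by level only. Their group means on the control diet were at most 2.31 CPM. IWAT was higher than BAT for 17 members and lower for 2 at an adjusted p under 0.05, with 38.2% of 12854 genes called in that pair. Against liver IWAT was higher for 19 and lower for 3 (53.2% of genes called), and against gastrocnemius higher for 10 and lower for 5 (55.8%). BAT was higher than liver for 16 and lower for 2 (51.9%), and against gastrocnemius higher for 1 and lower for 17 (44.1%). Liver was higher than gastrocnemius for 3 members and lower for 23 (60.3%). These pairs share libraries, so their counts are not independent. The filter kept a gene with enough tags in 1 tissue alone, so a member near 0 in another tissue could be called in 1 direction only. Col9a1, Col22a1 and Col24a1 averaged 3.66, 35.8 and 2.82 CPM in control gastrocnemius and at most 0.319 CPM in any other control tissue. Their calls, each higher in gastrocnemius, are among the counts above and follow from the filter. In liver Col4a3, Col4a4 and Col7a1 averaged 0.123, 0.159 and 0.141 CPM. Col7a1 also averaged 0.575 CPM in IWAT, against 4.64 in gastrocnemius. Calls of these members against liver, and of Col7a1 against IWAT, could likewise go in 1 direction only. With all such calls counted, members called made up 15 to 26 of the 27 tested. Only for IWAT against gastrocnemius, at 15 of 27, was that share near the share of all genes.

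Among fibrillar chains, Col1a1 ran from 380 to 1288 CPM in IWAT (median 577), from 341 to 857 in gastrocnemius (515), from 30.0 to 187 in BAT (77.4) and from 2.31 to 18.8 in liver (4.80). IWAT and gastrocnemius overlapped widely (log2 difference 0.06 ± 0.52 SE), and without CON3106 and CON3115 the difference was -0.88, not called either way. Muscle exceeded BAT by 2.82 ± 0.55, BAT exceeded liver by 3.01 ± 0.56, and both passed (edgeR adjusted p = 0.000212 and 7.93e-05).

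Col1a2 showed the same order, with medians of 441, 304, 50.3 and 6.00 CPM in IWAT, gastrocnemius, BAT and liver. Its IWAT range of 253 to 1218 CPM overlapped the muscle range of 185 to 589, and IWAT over gastrocnemius was 0.55 ± 0.46 with all libraries and -0.60 without CON3106 and CON3115, not called either way. Liver held 2.64 to 10.6 CPM and did not overlap with BAT (23.4 to 96.9).

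Col3a1, the fibrillar chain of distensible tissue, stood highest in IWAT at 796 to 2479 CPM (median 1381). Gastrocnemius held 78.3 to 343 (235), BAT 77.2 to 247 (127) and liver 15.3 to 48.6 (18.1). IWAT lay above every library of the others, by 2.25 ± 0.39 on the log2 scale over gastrocnemius (edgeR adjusted p = 3.85e-05). BAT and gastrocnemius overlapped and did not pass (-0.86 ± 0.38, adjusted p = 0.0663), though they did without the IWAT libraries that stand apart (edgeR adjusted p = 0.0282).

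The 3 type V chains, which set fibril diameter, had unlike patterns. Col5a3 had a median of 289 CPM in IWAT, 33.1 in BAT, 22.2 in gastrocnemius and 19.2 in liver, and the last 3 tissues did not pass against each other. Its IWAT range, 20.2 to 622, took in both libraries that stand apart as its lowest. Col5a1 had medians of 63.2 in IWAT, 18.1 in gastrocnemius, 10.4 in BAT and 3.45 in liver, and all 6 pairs passed. For Col5a1 the IWAT over gastrocnemius call was lost with animal CON3103, CON3112 or CON3114 left out in all its tissues (edgeR adjusted p up to 0.138). With animal as a block that call was lost too (edgeR adjusted p = 0.0553). Its BAT over gastrocnemius call was lost with animal CON3103, CON3107, CON3114 or CON3115 left out in the same way (up to 0.0934). Col5a2 had medians of 19.6, 6.49, 2.62 and 0.282 CPM in the same order, and its 6 pairs passed too. For Col5a2 the IWAT over gastrocnemius call was lost with animal CON3112 or CON3115 left out in all its tissues (edgeR adjusted p of 0.124 and 0.117). Its BAT over gastrocnemius call was lost with animal CON3103 or CON3107 left out in the same way (0.087 and 0.0802). With animal as a block the latter call was lost too (edgeR adjusted p = 0.0521).

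Col27a1, a fibrillar chain known from growing cartilage, had a different order from the rest of its class. Liver held 15.6 to 37.9 CPM (median 26.6), BAT 17.3 to 36.1 (20.9), IWAT 0.158 to 19.2 (7.13) and gastrocnemius 0.337 to 1.82 (1.18). Liver and BAT did not pass against each other (-0.68 ± 0.53 for BAT minus liver, edgeR adjusted p = 0.298). Both exceeded gastrocnemius, by 4.9 ± 0.64 and 4.22 ± 0.63 on the log2 scale.

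Among basement membrane chains, Col4a1 had medians of 411 CPM in IWAT, 125 in BAT, 86.8 in gastrocnemius and 18.4 in liver. BAT and gastrocnemius did not pass (0.22 ± 0.25, edgeR adjusted p = 0.502). Col4a2, its partner in the common type IV trimer, had medians of 104 in IWAT, 57.2 in BAT, 35.2 in gastrocnemius and 5.87 in liver. IWAT against BAT did not pass for Col4a2 (0.20 ± 0.41, adjusted p = 0.723) with all libraries and passed without CON3106 and CON3115 (0.68, edgeR adjusted p = 0.0473). The chains of the other type IV trimers were low: the highest control mean was 3.05 CPM, for Col4a5 in IWAT.

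Col4a1 (chromosome 8, 11198423 to 11312889, GRCm38, minus strand) and Col4a2 (chromosome 8, 11312805 to 11449287, plus strand) lie head to head on opposite strands. Tags of Col4a1 per tag of Col4a2 had a median of 4.27 in control IWAT (3.27 to 19.4, and 3.27 to 4.61 without CON3106 and CON3115), 2.10 in BAT, 2.84 in liver and 2.43 in gastrocnemius. The RefSeq (GRCm38.p6) promoter entries place the start of Col4a1 at 11312826 and that of Col4a2 at 11312805. These 2 starts overlap by 22 bases. The gene span of Col4a1 given above reaches 11312889, beyond this start, so the overlap of the spans is longer. The window of Col4a1, 250 bases before to 50 after its start at chr8:11312777-11313076, minus strand, is shown since it spans both starts and shares 78 bases with the window of Col4a2, with CCAAT on either strand in capitals.
Col4a1 promoter: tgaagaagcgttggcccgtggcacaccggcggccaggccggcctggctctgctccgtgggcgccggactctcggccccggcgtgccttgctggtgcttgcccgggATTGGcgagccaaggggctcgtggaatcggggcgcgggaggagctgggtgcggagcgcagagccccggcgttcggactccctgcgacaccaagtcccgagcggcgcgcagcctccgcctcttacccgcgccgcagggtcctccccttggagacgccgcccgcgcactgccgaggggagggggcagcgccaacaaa

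CCAAT was searched on both strands as these 5 letters, with no other motif. It was found in 35.3% of 34 windows of 31 members with an entry and in 37.4% of all 32851 windows of the same length.

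Among beaded filament chains, which combine 1 to 1 to 1 in type VI, Col6a2 had medians of 689 CPM in IWAT, 197 in gastrocnemius, 87.7 in BAT and 9.67 in liver. Col6a1 had medians of 202, 107, 42.0 and 6.27 in that order. Col6a3 gave far fewer tags, with medians of 23.8, 9.99, 4.94 and 1.05. IWAT and gastrocnemius did not pass for Col6a1 (0.57 ± 0.31) or Col6a3 (0.54 ± 0.45), and the call for Col6a2 (1.21 ± 0.35, edgeR adjusted p = 0.0056) was lost without CON3106 and CON3115 (0.72, adjusted p = 0.0629).

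The 2 multiplexins divided the tissues. Col15a1 ran from 430 to 2330 CPM in IWAT (median 753), from 48.9 to 146 in gastrocnemius (115), from 25.8 to 149 in BAT (44.7) and from 3.29 to 9.21 in liver (5.91). Col18a1 ran from 585 to 696 CPM in liver (654), from 27.6 to 141 in IWAT (102), and from 9.09 to 30.5 over BAT and gastrocnemius. Liver exceeded IWAT for Col18a1 by 3.63 ± 0.30 on the log2 scale (edgeR adjusted p = 5.95e-10), and IWAT exceeded liver for Col15a1 by 6.85 ± 0.63 (adjusted p = 2.79e-09).

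Col9a1 and Col22a1, FACIT chains of cartilage and of the muscle-tendon junction, were the 2 members with over 90% of their summed level in 1 tissue. Col22a1 gave 16.5 to 55.1 CPM in gastrocnemius (median 33.0) and at most 0.941 in any control library elsewhere. Col9a1 gave 2.61 to 5.57 CPM in gastrocnemius and at most 0.205 elsewhere, a level that a few tags allow. Tendon and cartilage markers (Tnmd, Scx, Comp and Acan) summed to 106 to 333 CPM in control gastrocnemius and to at most 14.2 in the other control tissues. Whether tendon in the dissected muscle gave these tags was not tested.

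The second question was what methionine restriction did within each tissue. In IWAT most collagen genes had lower values in restricted mice, but 0 of 21 tested members passed over all genes in the edgeR quasi-likelihood test, where 0.027% of 11101 genes were called. At an unadjusted p under 0.05, 12 of 21 were lower and 0 higher, against 4.85% of all genes lower. For 3 members, Col3a1, Col6a2 and Col16a1, no restricted library reached any control library, against 1.53% of all genes. The fitted value was below 0 for 19 of 21, with a median log2 fold change of -1.17, against -0.017 over all genes. The other 17 members had too few tags to be tested in IWAT. DESeq2 called 4 (Col3a1, Col6a1, Col6a2 and Col16a1), and limma on the deposited normalized signal called 0. The share of all genes that DESeq2 called is not given here, so its count has no background beside it.

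Col3a1 gave 796, 891, 1331, 1431, 1446 and 2479 CPM in the control IWAT libraries and 283, 307, 329, 336, 416 and 456 in the restricted ones. The groups did not overlap, and the gene (chromosome 1, 45311538 to 45349706, GRCm38) had the smallest p of the family, at -1.94 ± 0.37 on the log2 scale (fold change ± SE, 6 mice each). It missed the threshold (edgeR, adjusted p = 0.0876). Without CON3114 it passed (adjusted p = 0.0477), and without the 3 libraries that stand apart it was -1.48 with an adjusted p of 0.0685.

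Col1a1 ran from 380 to 1288 CPM on the control diet (median 577) and from 171 to 409 under restriction (284), with a log2 fold change of -1.35 ± 0.50 and an edgeR adjusted p of 0.384. Its 2 highest controls were CON3106 and CON3115, and without the 3 libraries that stand apart the value was -0.81. Col1a2 had medians of 441 and 136 CPM and a log2 fold change of -1.56 ± 0.65 (edgeR adjusted p = 0.484). Its restricted range of 112 to 436 was stretched by MR3116, the highest.

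Of the type V chains, Col5a2 had medians of 19.6 and 10 CPM (log2 fold change -1.42 ± 0.46) and Col5a1 63.2 and 22.4 CPM (-1.30 ± 0.54). Col5a3 had medians of 289 and 135 CPM and a value of -0.81 ± 0.76. For Col5a3 the lowest library of each diet stood apart, and without these libraries every restricted mouse lay below every control. Col27a1 was the 1 fibrillar member above 0, at 1.21 ± 0.75, and is described on its own.

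Among basement membrane chains in IWAT, Col4a1 ran from 144 to 756 CPM on the control diet (median 411) and from 39.8 to 314 under restriction (224). Col4a2 ran from 7.42 to 211 (104) and from 2.90 to 88.4 (61.6). Neither passed (log2 fold changes -0.79 ± 0.40 and -0.58 ± 0.68, edgeR adjusted p = 0.635 and 1), and the groups overlapped for both. Without the libraries that stand apart the values were -0.91 and -0.85.

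Type VI chains also had values below 0. Col6a2 gave 357 to 1029 CPM on the control diet (median 689) and 162 to 253 under restriction (219), with no overlap and a log2 fold change of -1.60 ± 0.37 (edgeR adjusted p = 0.145). Col6a1 had medians of 202 and 109 CPM (-1.02 ± 0.28, adjusted p = 0.185), and Col6a3 23.8 and 9.72 CPM (-1.37 ± 0.68). Col16a1, a FACIT chain, gave 2.08 to 4.91 CPM and 0.483 to 1.91, with no overlap (-1.39 ± 0.32, edgeR adjusted p = 0.144). Col15a1 had medians of 753 and 282 CPM (-1.71 ± 0.60) and Col18a1 102 and 47.0 CPM (-1.13 ± 0.39), neither past the threshold.

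As sums over each class, fibrillar chains gave 1784 to 4882 CPM in control IWAT and 825 to 1272 under restriction, a ratio of means of 0.324 with no overlap. Type VI chains gave 535 to 1322 and 282 to 435 CPM, again with no overlap. Type IV chains gave 158 to 979 and 44.9 to 406 CPM, which overlapped, with a ratio of 0.546. Without the libraries that stand apart the type IV ranges did not overlap either (502 to 979 and 240 to 406 CPM, ratio 0.487), and the fibrillar ratio was 0.399. With TMM-scaled totals the fibrillar ranges overlapped (1555 to 5416 and 717 to 1790, ratio 0.341), with MR3116 the highest restricted library. The median log2 fold change was -1.35 over 7 fibrillar and -0.79 over 3 type IV members, and without the libraries that stand apart -1.25 and -0.91. Fibrillar tags per type IV tag had medians of 4.45 and 3.30 in the 2 diets, with ranges of 3.26 to 25.1 and 2.68 to 25.4, which overlapped. Without the libraries that stand apart they were 3.26 to 5.24 (median 3.60) and 2.68 to 3.75 (2.87), which overlapped too.

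Counts were higher without the libraries that stand apart. With 4 control and 5 restricted mice, 14 of 21 members did not overlap between the diets (Col1a1, Col1a2, Col3a1, Col5a1, Col5a2, Col5a3, Col4a1, Col4a2, Col4a5, Col6a2, Col6a3, Col15a1, Col16a1 and Col18a1), against 6.57% of all genes. At an unadjusted p under 0.05, 15 were lower and 1 higher, against 8.61% of genes lower. Still 0 members, and 0 of all 11624 genes, passed after adjustment.

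**Figure D3:**
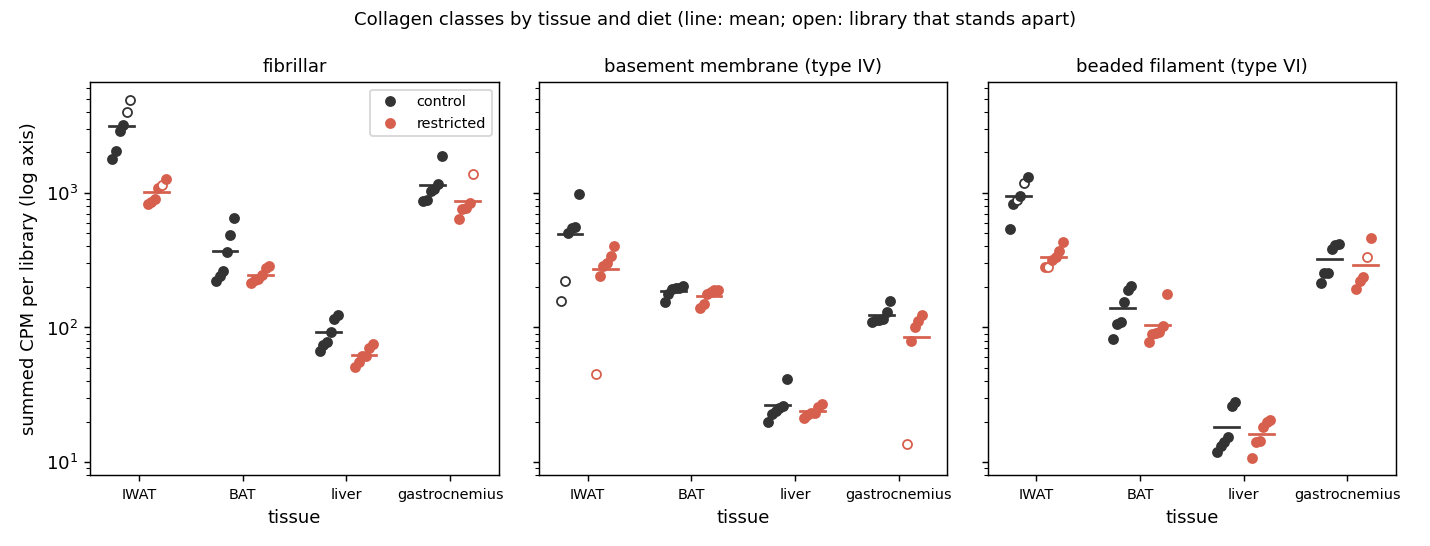
Summed CPM per library (log axis) of fibrillar, type IV and type VI chains by tissue and diet, 1 point per mouse with a line at the mean; open points are libraries that stand apart. In IWAT the restricted fibrillar sums (825 to 1272) lie below all control sums (1784 to 4882); the type IV sums overlap with all libraries and not without the open points (502 to 979 and 240 to 406).

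Beside the collagens, 1 stromal marker sum did not overlap between the diets in IWAT. The 6 fibroblast markers summed to 758 to 2166 CPM in controls and 298 to 412 under restriction, with no overlap, and none of the 6 passed. Most of that sum was Dpt, a collagen-binding matrix protein (control mean 1043 CPM, log2 fold change -2.23 ± 0.40, edgeR adjusted p = 0.0712), while Pdgfra, Thy1, Pi16, Cd34 and Pdgfrb had values from -0.88 to 0.04. Endothelial markers (411 to 831 and 286 to 469 CPM) and smooth muscle and pericyte markers (135 to 350 and 120 to 281) overlapped. Brown adipocyte markers were at 38.7 to 672 CPM in controls and 748 to 2769 under restriction, with no overlap. Lymphocyte markers ranged from 6.35 to 1837 CPM and hepatocyte markers from 221 to 10990 CPM over the 12 libraries. The part of cell composition in the collagen values was not tested, and in whole tissue fewer cells of a type and less RNA per cell cannot be told apart.

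In brown fat, of 19 tested members 0 passed (edgeR, where 1.11% of 10791 genes were called). DESeq2, for which no share of all genes is given, called Col5a1 and Col27a1, and limma called 0. At an unadjusted p under 0.05, 8 were lower (6.33% of genes) and 1, Col27a1, was higher. Values below 0 were found for 16 of 19, with a median of -0.49, against 0.002 over all genes. The groups did not overlap for 1 member (1.28% of genes), the transmembrane collagen Col23a1, which gave 1.51 to 5.11 CPM on the control diet and 0.504 to 1.45 under restriction (log2 fold change -1.22 ± 0.35, edgeR adjusted p = 0.142).

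Among fibrillar chains in BAT, Col5a1 gave 5.66 to 18.4 CPM (median 10.4) and 2.65 to 6.90 (4.4), with a log2 fold change of -1.16 ± 0.30 (edgeR adjusted p = 0.0915). Col5a3 had medians of 33.1 and 18.4 CPM (-0.83 ± 0.25, adjusted p = 0.158). Col3a1 had medians of 127 and 84.8 CPM (-0.70 ± 0.28), Col1a1 77.4 and 50.9 (-0.59 ± 0.37), Col1a2 50.3 and 35.7 (-0.56 ± 0.33) and Col5a2 2.62 and 1.70 (-0.24 ± 0.50). The highest control sum of fibrillar tags was 654 CPM, in CON3106, the library with hepatocyte markers. CON3112 and CON3114, the BAT libraries with the most skeletal muscle markers, had the next sums, 486 and 363 CPM. CON3103, CON3107 and CON3115 had 241, 222 and 264 CPM, within the restricted range of 213 to 284. The part of other tissue in the BAT values was not tested.

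Type IV chains had values near 0 in BAT. Col4a1 gave 104 to 149 CPM on the control diet and 90.8 to 160 under restriction (log2 fold change 0.05 ± 0.16), and Col4a2 gave 48.0 to 74.1 and 21.8 to 83.5 (-0.13 ± 0.26). The class sums were 154 to 203 and 141 to 191 CPM (ratio 0.920), against 222 to 654 and 213 to 284 for fibrillar chains (ratio 0.662), and both overlapped. With TMM-scaled totals the ratios were 0.995 for type IV and 0.726 for fibrillar chains, and both overlapped too. The median was -0.59 over 7 fibrillar and -0.04 over 2 type IV members.

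The multiplexins and FACIT chains of BAT were also below 0. Col18a1 had medians of 13.6 and 8.28 CPM (-0.80 ± 0.26, edgeR adjusted p = 0.183) and Col15a1 44.7 and 25.1 (-1.01 ± 0.41). Col12a1 and Col14a1, fibril-associated chains, had values of -0.49 and -0.82. Col6a1, Col6a2 and Col6a3 lay at -0.46, -0.23 and -0.30. Fibroblast markers in BAT summed to 64.6 to 213 CPM in controls and 43.7 to 74.3 under restriction, with overlap, and their part in the result was not tested.

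In liver 2 fibrillar members fell under restriction, Col27a1 and Col5a3, of 17 tested (2.26% of 10969 genes were called, in either direction). At an unadjusted p under 0.05, 5 members were lower (7.76% of genes) and 0 higher. No member had groups without overlap (0.438% of genes were lower without overlap). The median was -0.40 over the 17, against 0.010 over all genes, -0.52 over 6 fibrillar and -0.26 over 2 type IV members.

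Col5a3 (chromosome 9, 20770050 to 20815117, GRCm38) gave 17.6, 17.7, 18.1, 20.2, 23.6 and 25.1 CPM in control livers and 12.4, 14.3, 14.4, 16.0, 17.2 and 18.5 in restricted ones. The highest restricted liver, MR3101, lay within the control range. The log2 fold change was -0.59 ± 0.14 (edgeR adjusted p = 0.0401), a call that was lost with no filter on low counts, in limma on the deposited signal, and without any 1 of 8 of the 12 mice (adjusted p of 0.0615 to 0.0937).

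Col5a1 had a narrow spread in liver, 2.97 to 3.89 CPM in controls and 1.77 to 3.06 under restriction (log2 fold change -0.63 ± 0.17, edgeR adjusted p = 0.0715). Col14a1, higher in liver than in the other tissues, gave 9.73 to 17.3 and 9.32 to 12.2 CPM (-0.41 ± 0.12, adjusted p = 0.109). Col4a1 gave 13.9 to 29.7 and 14.5 to 18.8 CPM (-0.40 ± 0.15, adjusted p = 0.204), with CON3107 the highest, and Col4a2 had medians of 5.87 and 6.63 CPM with a TMM-scaled fold change of the other sign (-0.11 ± 0.20). Col13a1, a transmembrane chain, was above 0 (0.62 ± 0.33). The type I chains and Col3a1 had values of -0.41, -0.46 and -0.46, and none passed.

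The dominant liver collagen did not pass and its groups overlapped. Col18a1 (chromosome 10, 77052178 to 77166530, GRCm38) gave 585 to 696 CPM on the control diet and 633 to 695 under restriction, with a log2 fold change of -0.13 ± 0.09 (edgeR adjusted p = 0.552). Its sign turns with the scaling: the means were 653 and 675 CPM on plain library totals and 696 and 635 on TMM-scaled totals, with TMM factors of 0.863 to 1.02 in control and 1.001 to 1.12 in restricted livers. The same held in liver for Col4a2, Col6a1, Col6a3 and Col19a1, none of which passed. Collagen tags as a share of the library, most of them from this gene, were 0.0723% to 0.0866% and 0.0779% to 0.0833% in the 2 diets. Fibrillar sums were 66.6 to 124 and 50.9 to 74.8 CPM (ratio 0.676) and, with TMM-scaled totals, 75.9 to 127 and 49.98 to 67.98 with no overlap (ratio 0.601). Col15a1 had a value of 0.03 ± 0.26, Col6a1 -0.15, Col6a2 -0.49 and Col6a3 -0.11. Stellate cell markers, of the cells known for making fibrillar collagen in liver, summed to 97.1 to 137 and 106 to 150 CPM, and 0 of 3 tested passed.

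In gastrocnemius 0 of 29 tested members passed in edgeR, where 0% of 11225 genes were called, and 0 members had an unadjusted p under 0.05, against 6.32% of genes in either direction. DESeq2 and limma called 0 members too. The median was -0.29, against -0.041 over all genes, with -0.33 over 10 fibrillar and -0.29 over 5 type IV members. Fibrillar sums were 872 to 1880 CPM in controls and 640 to 1371 under restriction, with overlap (ratio of means 0.763). Type IV sums were 110 to 156 and 13.7 to 124 CPM, also with overlap (0.695). With TMM-scaled totals the fibrillar ratio was 0.938 (780 to 1523 and 639 to 2238) and the type IV ratio 0.708, again with overlap. On plain totals without MR3101 the restricted fibrillar sums were 640 to 836 CPM, with no overlap (ratio 0.655). The type IV sums then were 79.4 to 124 CPM and still overlapped (0.841). Col1a1 gave 341 to 857 CPM in controls (median 515) and 195 to 528 under restriction (315), with a log2 fold change of -0.29 ± 0.44. Col3a1 had medians of 235 and 185 CPM (-0.30 ± 0.35), Col4a1 86.8 and 67.1 (-0.50 ± 0.40) and Col4a2 35.2 and 23.0 (-0.57 ± 0.59).

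Several muscle values turned on MR3101. Col1a2, Col6a2 and Col15a1 had values of 0.35 ± 0.56, 0.26 ± 0.48 and 1.06 ± 0.65 with all libraries and -0.74, -0.17 and -0.14 without it. Col15a1 had 445 CPM in MR3101 and at most 146 in any control muscle. Col5a1, Col5a2, Col5a3, Col6a1, Col6a3 and Col18a1 had values from -0.84 to -0.40 and stayed below 0 without MR3101. Without that library 4 members had an unadjusted p under 0.05 and all 4 were lower, against 1.59% of all genes lower. Among FACIT chains, Col19a1 had 1.12 ± 0.61 and, without MR3101, 0.09, while Col12a1 and Col16a1 had -0.60 ± 0.34 and -0.59 ± 0.32. Col22a1 gave 16.5 to 55.1 and 22.6 to 46.2 CPM (-0.11 ± 0.40), and Col9a1 2.61 to 5.57 and 1.80 to 8.17 (0.38 ± 0.53). Tendon and cartilage markers summed to 106 to 333 and 75.5 to 174 CPM. With all libraries 2 of 3 tested were lower at an unadjusted p under 0.05, against 0.686% of all genes lower. Their part in the muscle values was not tested.

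**Figure D4:**
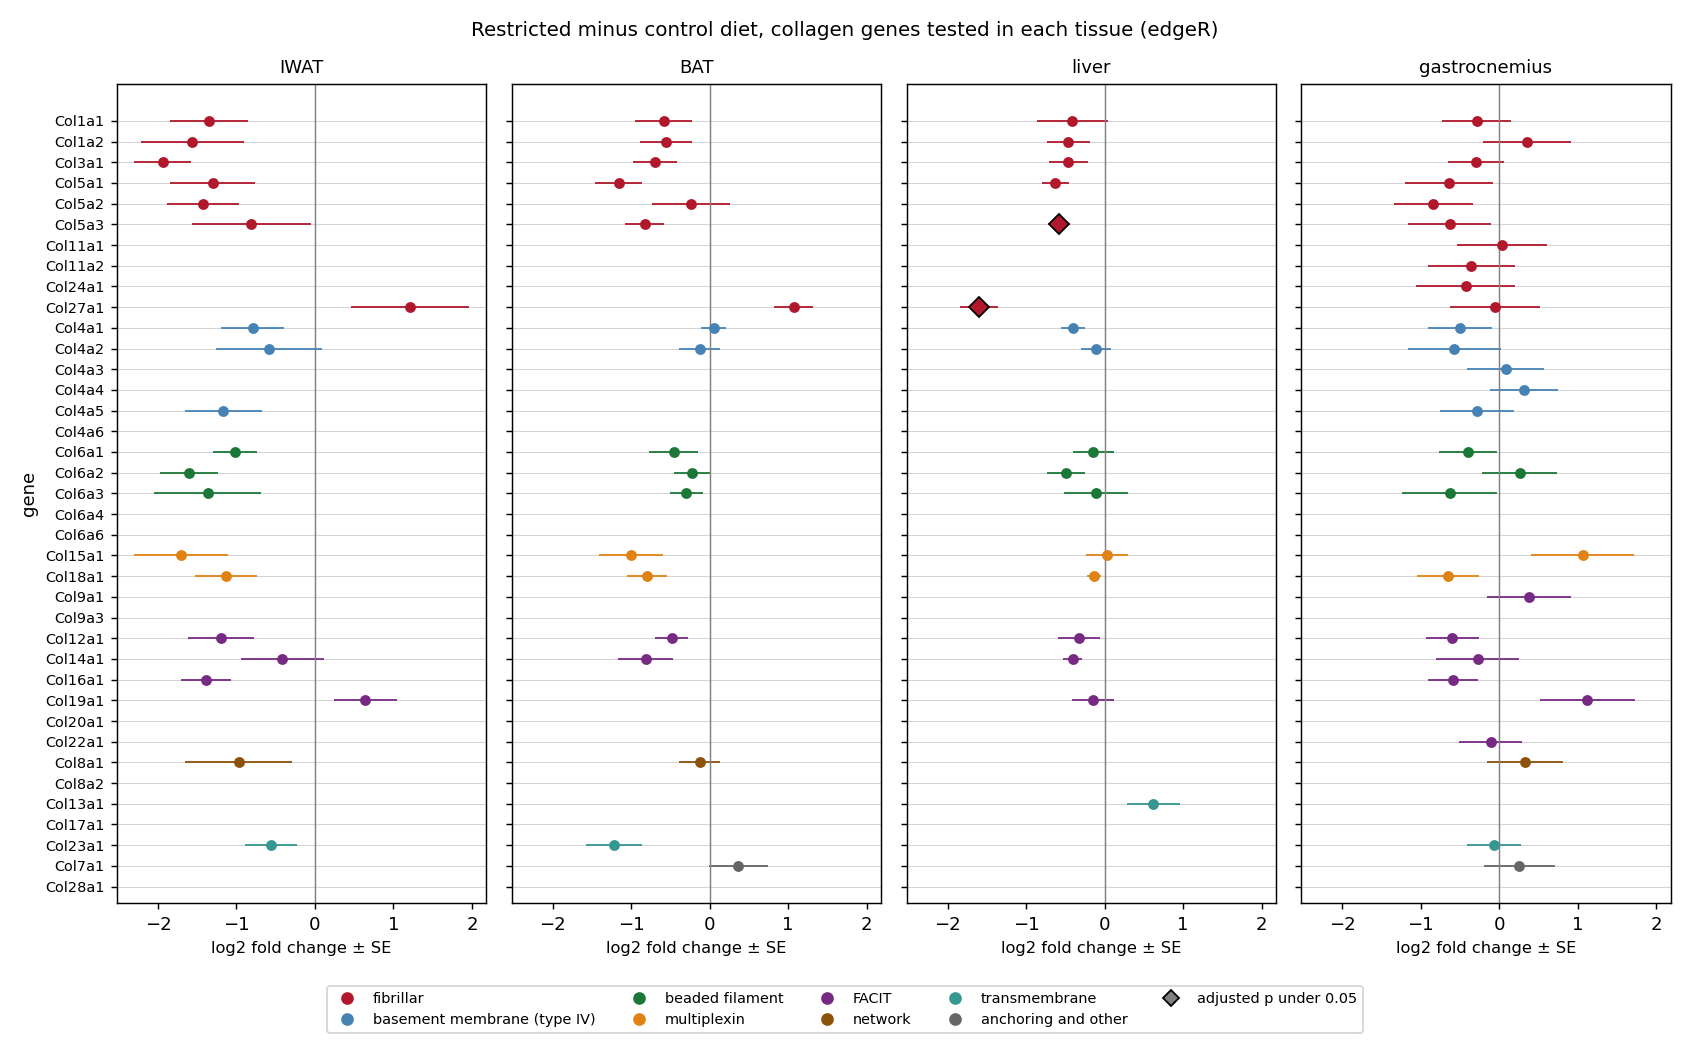
Log2 fold change ± SE (x axis, restricted minus control, edgeR) of each collagen gene tested in a tissue, 1 row per gene, coloured by class. Diamonds mark Col5a3 and Col27a1 in liver, which passed an adjusted p of 0.05; in IWAT 19 of 21 points lie left of 0.

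The third question was whether the diet effect differed between tissues. In a single edgeR fit of all 47 libraries, 0 of 30 members passed the test over the 4 tissues (0.524% of 13541 genes did). At an unadjusted p under 0.05 there were 4 of 30, near the share of all genes (13.9%), and limma voom called 1, Col27a1. For IWAT minus liver 1 member passed, Col27a1 (0.591% of genes), and 6 of 30 had an unadjusted p under 0.05 (7.67% of genes). For BAT minus liver 0 passed (0.103%) and 1 of 30 had an unadjusted p under 0.05 (6.57% of genes). For the other chains a difference in diet effect between tissues was not shown with all libraries. With animal MR3116 left out in all its tissues, the test over the 4 tissues called Col1a2, Col6a2, Col15a1 and Col27a1. With animal CON3107 left out in the same way it called Col3a1.

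Col27a1 fell in liver and had values above 0 in both fats, which did not pass. In liver (chromosome 4, 63214009 to 63334991, GRCm38) control mice gave 15.6, 17.7, 23.8, 29.3, 36.1 and 37.9 CPM and restricted mice 6.66, 7.56, 8.74, 9.45, 12.5 and 15.8. The 2 ranges touched only at MR3116 (15.8) and CON3107 (15.6). The log2 fold change was -1.60 ± 0.24 (edgeR adjusted p = 0.00191), in 6 of 6 restricted mice below the control median.

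In BAT controls gave 17.3, 18, 20.3, 21.5, 24.9 and 36.1 CPM and restricted mice 34.4, 34.98, 37.7, 42.1, 56.8 and 61.3. All restricted mice exceeded 5 of the 6 controls, and CON3115 (36.1) lay within the restricted range. The log2 fold change was 1.07 ± 0.25, just short of the threshold (edgeR adjusted p = 0.0548), and without CON3115 it passed (adjusted p = 0.0221).

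In IWAT controls gave 0.158, 0.564, 6.55, 7.72, 9.88 and 19.2 CPM and restricted mice 3.06, 14.9, 15.6, 18.6, 21.0 and 23.5. The lowest values, 0.158 and 0.564 in controls and 3.06 under restriction, were the libraries that stand apart. The log2 fold change was 1.21 ± 0.75 (edgeR adjusted p = 0.799). In gastrocnemius both groups were at or below 2.08 CPM (-0.06 ± 0.57).

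The diet effect on Col27a1 differed by 2.86 ± 0.70 on the log2 scale between IWAT and liver (edgeR adjusted p = 0.0362) and by 2.70 ± 0.69 between BAT and liver (adjusted p = 0.163). Without the 4 libraries that stand apart these differences were 2.52 and 2.72 and both passed (edgeR adjusted p = 0.00104 and 0.000102), as did the test over the 4 tissues (0.0653 with all libraries and 0.000181 without those 4). The IWAT minus liver call was lost when any 1 of 9 animals was left out with all its tissues (adjusted p of 0.0515 to 0.139) and with no filter on low counts (0.0712).

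**Figure D5:**
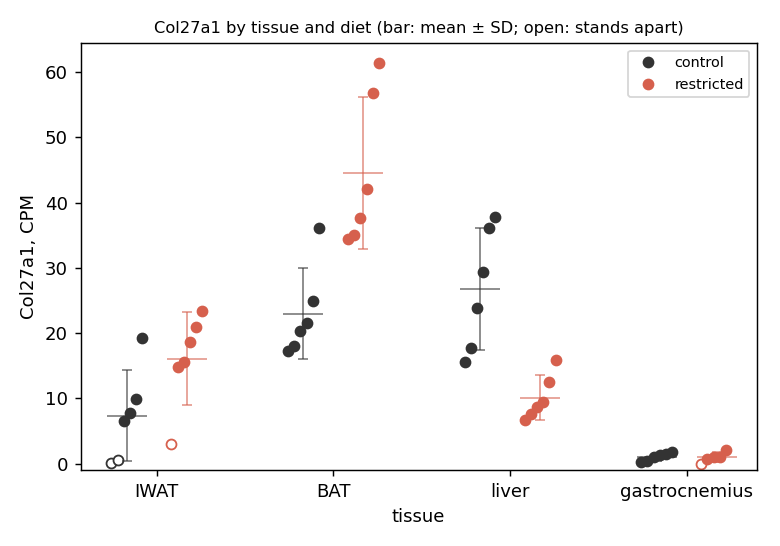
Col27a1 in CPM per library (y axis) by tissue and diet, 1 point per mouse, with mean ± SD; open points are libraries that stand apart. Restricted mice lie at 6.66 to 15.8 CPM in liver, below controls at 15.6 to 37.9 apart from 1 touching pair, and at 34.4 to 61.3 in BAT, above 5 of 6 controls.

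The genes that make, cut and sense collagen were read from 6 lists. In the same edgeR tests 0.027% of all genes were called in IWAT, 1.11% in BAT, 2.26% in liver and 0% in gastrocnemius. Chaperones and modifying enzymes, which fold and hydroxylate the chains, had 0 of 15 tested members called in IWAT and BAT, 1 of 13 in liver and 0 of 15 in gastrocnemius. The call was Ppib, a prolyl isomerase of the endoplasmic reticulum, which fell in liver (-0.48 ± 0.12, edgeR adjusted p = 0.0429). Serpinh1, the collagen chaperone Hsp47, had -1.36 ± 0.34 in IWAT (control mean 604 CPM, restricted mean 236, adjusted p = 0.159) and -0.53 ± 0.17 in liver.

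Of procollagen processing and assembly genes, 1 of 12 tested was called in BAT (1.11% of all genes). In IWAT, liver and gastrocnemius 0 of 14, 12 and 13 were called. Loxl1, a cross-linking lysyl oxidase homologue, rose in BAT (1.08 ± 0.20, edgeR adjusted p = 0.0187), from 48.6 to 95.3 CPM. The list median in IWAT was -0.99, with 6 of 14 lower at an unadjusted p under 0.05 (4.85% of all genes). In BAT 5 of 12 were lower (6.33% of genes) and 1 higher at that level, and in liver 2 of 12 were lower (7.76%). In gastrocnemius 0 of 13 were lower and 1 higher at that level (6.32% of genes in either direction). In IWAT the list summed to 4207 to 8367 CPM in controls and 2035 to 2873 under restriction, with no overlap.

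Of degradation and uptake genes, 1 of 8 tested in liver was called (2.26% of all genes). In IWAT, BAT and gastrocnemius 0 of 11, 10 and 10 were called. Mmp14, a membrane-bound collagenase, rose in liver from 10.8 to 20.5 CPM (0.73 ± 0.16, edgeR adjusted p = 0.0285). Collagen receptors (5 to 7 tested by tissue), the inducers around TGF-beta (8 or 9 tested) and other basement membrane genes (6 to 10 tested) had 0 members called in any tissue. Medians in IWAT were -0.76 for degradation, -0.31 for receptors, -0.15 for inducers and -0.48 for other basement membrane genes, against -0.79 for the 3 type IV members.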

How the data were processed

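Tags were sequenced from SOLiD SAGE libraries of 4 tissues, per the labels' protocols, and the authors deposited raw counts per gene symbol for 47 libraries, with a second table per tissue of normalized signal. Per the submitters' processing notes DESeq was used, with mm10 and GRCm38.p1. The authors' deposited signal was used only in limma, as log2(signal + 1) or log2(signal + 0.5).

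From the counts, edgeR 4.0.16 (R 4.3.3) quasi-likelihood tests were fitted with TMM factors and a minimum count of 10 in filterByExpr: per tissue for diet, over control libraries for tissue pairs, and over all libraries for diet by tissue. P-values were adjusted by Benjamini-Hochberg over all genes of a fit, and SE is the absolute fold change over the root of F. Alternatives were DESeq2 1.42.0, limma 3.58.1, other scaling factors, no filter, each animal left out and animal as a block. Leaving out libraries that stand apart, and TMM-scaled sums and means, were added after seeing the data. P-values of the diet tests within a tissue measure the spread between animals. The main fits of tissue pairs and of diet by tissue had no term for the animal. Their p-values measure the spread between libraries, with the pairing of tissues by mouse left out.

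Genes named were every member called that is described singly, 13 common chains in every tissue, the 6 smallest p per tissue, the 5 highest per tissue, and any member with over 90% of its level in 1 tissue. The members, lists and markers were chosen with earlier results of these data known. Animal numbers in the labels pair tissues of the same mouse. Deviations of same-numbered libraries had a mean correlation of -0.0817 to 0.0638 by tissue pair. Scripts were tested on simulated data.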

Additional observations from a re-analysis of the deposited data

Results flagged for a closer look

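In 16 of 152 groups of member or class values, 1 library lay far from the others of its group by Dixon's criterion, and chance flags about 1 in 20. Of these 6 were in libraries that stand apart. In IWAT MR3116 had the highest restricted Col1a2 (436 CPM) and the lowest Col6a3 (0.322 CPM). In restricted gastrocnemius MR3101 had 751 CPM of Col1a2, 0 CPM of Col6a3, 0.240 CPM of Col5a1 and a fibrillar sum of 1371 CPM.

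The other flagged libraries do not stand apart. In BAT they were Col6a2 and the type VI sum in MR3109 (124 and 176 CPM), Col6a3 in MR3101 (2.90 CPM) and Col5a3 in CON3106 (80.1 CPM). In liver they were Col4a1 and the type IV sum in CON3107 (29.7 and 41.2 CPM) and Col23a1 in CON3114 (1.10 CPM). In gastrocnemius they were Col1a2 and the fibrillar sum in CON3107 (589 and 1880 CPM) and Col5a2 in MR3109 (9.66 CPM).

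The diet effect on Col27a1 differed between IWAT and liver by 2.86 on the log2 scale in a test of the difference itself (edgeR adjusted p = 0.0362).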

How the results depend on the processing

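The liver call of Col27a1 passed in every alternative run. DESeq2 called 4 members for diet in IWAT and 2 in BAT, where edgeR called 0. No share of all genes is given for DESeq2, limma or limma voom, so their counts have no background beside them. In liver 1 was called with no filter and 1 with limma at either pseudocount. With no filter the type IV median in BAT was -0.400 and the IWAT minus liver count 0. The test over the 4 tissues called 1 in limma voom with the replicate block and 1 without it, and 1 without the libraries that stand apart, where BAT minus liver also called 1. The replicate block moved no count of tissue pair calls by over 1.5 times, but ended those of Col4a2 and Col5a1 for IWAT over gastrocnemius and of Col5a2 and Col6a3 for BAT over gastrocnemius, and added Col15a1 there.

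Signs turned for Col6a3 in liver (0.156 and 0.181 in limma at pseudocounts of 1 and 0.5), Col1a2 in gastrocnemius (-0.135 in both), Col4a2 for IWAT over BAT (-0.0382 with the replicate block), Col18a1 for BAT over gastrocnemius (0.00445 with upper-quartile factors) and Col1a1 for IWAT over gastrocnemius (-0.00925 with no filter). Without the libraries that stand apart, IWAT over gastrocnemius was -0.884 for Col1a1 and -0.602 for Col1a2. The cause was not tested.

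Leaving out 1 animal at a time gave 0 to 1 calls in IWAT and BAT, 1 to 2 in liver, 0 to 4 over the 4 tissues, and 0 to 1 for IWAT minus liver and BAT minus liver. Signs turned for tissue pairs in Col18a1 (BAT over gastrocnemius, -0.276 to 0.1001), Col1a1 (IWAT over gastrocnemius, -0.408 to 0.294), Col4a2 (IWAT over BAT, -0.117 to 0.444) and Col5a3 (liver over gastrocnemius, -0.138 to 0.124). For diet they turned in BAT for Col4a1 (-0.0521 to 0.130), Col4a2 (-0.427 to 0.0220) and Col5a2 (-0.759 to 0.0627). In liver they turned for Col4a2 (-0.231 to 0.0650), Col6a1 (-0.312 to 0.00258), Col6a3 (-0.299 to 0.317) and Col15a1 (-0.107 to 0.236). In gastrocnemius they turned for Col1a2 (-0.741 to 0.571), Col6a2 (-0.166 to 0.479) and Col15a1 (-0.144 to 1.302). Depth limits the members with too few tags to be tested.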
